A study of Mus musculus with 6 samples.

Results

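Genes for receptors that take up lipoproteins, microbes and debris were followed here on all 6 arrays of the series: the scavenger receptor genes Msr1, Marco, Cd36, Scarb1, Olr1 and Cd68, the beta-glucan receptor gene Clec7a and the scavenger receptor and chemokine gene Cxcl16. These are 8 of the 18193 genes that a single-gene probe set of the table names. Their members are the 17 probe sets that list 1 of the 8 and no other, out of 45037 probe sets without the controls. A probe set is a group of short probes read as 1 value for a transcript. Msr1 has 4 of them, Cd36 and Scarb1 have 3 each, Marco and Cxcl16 have 2 each, and Olr1, Clec7a and Cd68 have 1 each. All 17 lay above the floor on all 6 arrays, so none of the values given for them is a bound. For each gene the probe set of highest mean leads.

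RNA came from mouse macrophages in 4 groups with 1 array per sample. Wild-type macrophages were given medium (n = 1) or LPS, a bacterial cell wall lipid sensed through a Toll-like receptor (n = 1), and these arrays are called the LPS pair. Macrophages labelled Trib1 Wild-type (n = 2) and Trib1 KO (n = 2) all received LPS, are numbered 1 and 2, and are called the Trib1 line. By the series description the first pair defines LPS-inducible genes and the other 4 samples compare the genotypes. The Trib1 line therefore has no medium array of its own. The labels give no tissue source, strain, sex, age, LPS dose or time, and do not say what was deleted from Trib1. Nor do they tell if the arrays of each genotype hold RNA of separate mice or cultures, so a p-value here reflects the spread between arrays, which may be technical.

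Scavenger receptors are a mixed set of surface proteins that bind modified lipoproteins and other polyanionic ligands. Class A members such as MSR1 and MARCO carry a collagen-like stalk, and class B members such as CD36 and SR-BI, the product of Scarb1, span the membrane at both ends. LOX-1, the product of Olr1, and Dectin-1, the product of Clec7a, have lectin-like domains, and Dectin-1 starts signalling through the kinase SYK when it meets fungal beta-glucan. In macrophages these receptors feed lipid and microbial cargo into endosomes and lysosomes, where CD68 resides.

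The promoters below are shown because Olr1 and Clec7a lie side by side on the chromosome and differed on the arrays, Marco varied widely, and Cd68 hardly varied. Each is the 250 bases before an annotated transcript start in RefSeq (GRCm38.p6), written from 5′ to 3′ on the gene's strand. No protein-coding gene starts between Clec7a and Olr1 in that annotation. Of the 8 genes, 5 had an entry in the promoter table. Capitals mark any match, on either strand, to 5 motifs: AP-1 (TGANTCA), C/EBP (TTGCNNAA), PU.1 (GAGGAA), NF-kB (GGGANTTTC, the first part of a kappaB element) and NRF2 (TGACNNNGC).

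Marco, chr1:120505025-120505274, minus strand: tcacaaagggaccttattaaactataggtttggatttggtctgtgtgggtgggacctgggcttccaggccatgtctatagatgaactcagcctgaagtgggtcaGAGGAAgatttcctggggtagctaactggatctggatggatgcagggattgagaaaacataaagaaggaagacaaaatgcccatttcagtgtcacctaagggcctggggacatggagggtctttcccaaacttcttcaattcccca
Olr1, chr6:129507166-129507415, minus strand: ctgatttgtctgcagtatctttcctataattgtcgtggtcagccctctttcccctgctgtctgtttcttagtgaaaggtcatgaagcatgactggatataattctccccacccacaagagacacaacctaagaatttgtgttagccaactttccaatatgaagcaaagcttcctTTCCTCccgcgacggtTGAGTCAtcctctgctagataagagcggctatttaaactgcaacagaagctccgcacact
Clec7a, chr6:129472780-129473029, minus strand: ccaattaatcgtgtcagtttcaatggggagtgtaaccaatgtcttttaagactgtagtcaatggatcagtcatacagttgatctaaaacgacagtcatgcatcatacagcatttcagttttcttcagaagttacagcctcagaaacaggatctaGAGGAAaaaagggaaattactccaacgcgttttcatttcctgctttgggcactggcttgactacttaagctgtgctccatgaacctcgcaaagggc
Cd68, chr11:69666171-69666420, minus strand: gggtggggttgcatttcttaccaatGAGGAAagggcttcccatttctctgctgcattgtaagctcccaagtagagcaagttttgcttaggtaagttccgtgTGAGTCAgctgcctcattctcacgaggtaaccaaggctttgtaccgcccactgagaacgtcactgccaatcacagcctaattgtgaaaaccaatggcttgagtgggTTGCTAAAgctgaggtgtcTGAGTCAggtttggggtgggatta

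The Olr1 window held an AP-1 match 60 to 54 bases before the start and a PU.1 match on the other strand. The Cd68 window held 2 AP-1 matches, a C/EBP match and a PU.1 match. Marco and Clec7a each had a PU.1 match alone. The NF-kB and NRF2 letters were in none of the 4 windows, which says nothing of those factors. None of the matches in these 4 windows overlapped another. Among 32851 promoter entries of the same length, 6.75% held the AP-1 letters, 9.56% the C/EBP letters, 23.3% the PU.1 letters, 0.941% the NF-kB letters and 10.2% the NRF2 letters. A match describes the letters of the window and does not show that a factor binds there.

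Values are scaled intensities. The authors had scaled the first pair of arrays and the other 4 to different levels, so each array was brought to a common trimmed mean of 234. For log2 values, ratios and tests, values under a floor of 29.9 were set to it. The intensities and sums printed here keep the values under the floor as measured. The share of probe sets above that floor ran from 57.9% to 63.0% over the arrays. In the order (wild type 1, wild type 2, knockout 1, knockout 2), Trib1 itself measured 17.9, 17.5, 88.1 and 20.9 with 1424880_at and 20.2, 63.0, 32.3 and 38.7 with 1424881_at. On the LPS pair Trib1 measured 383 in medium and 189 with LPS with 1424880_at, and 37.1 and 29.3 with 1424881_at. Both wild-type arrays of the Trib1 line thus lay under the floor with 1424880_at, far below the wild-type LPS array of the pair. These values do not check the labels, also since the probe sets' place relative to the deleted part is not given. The arrays are called knockout-labelled throughout. All 10 macrophage markers examined were above the floor on every array, with summed scaled intensities between 91467 and 110718. In whole-culture RNA, fewer cells of a type and less RNA per cell cannot be told apart.

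**Figure D1:**
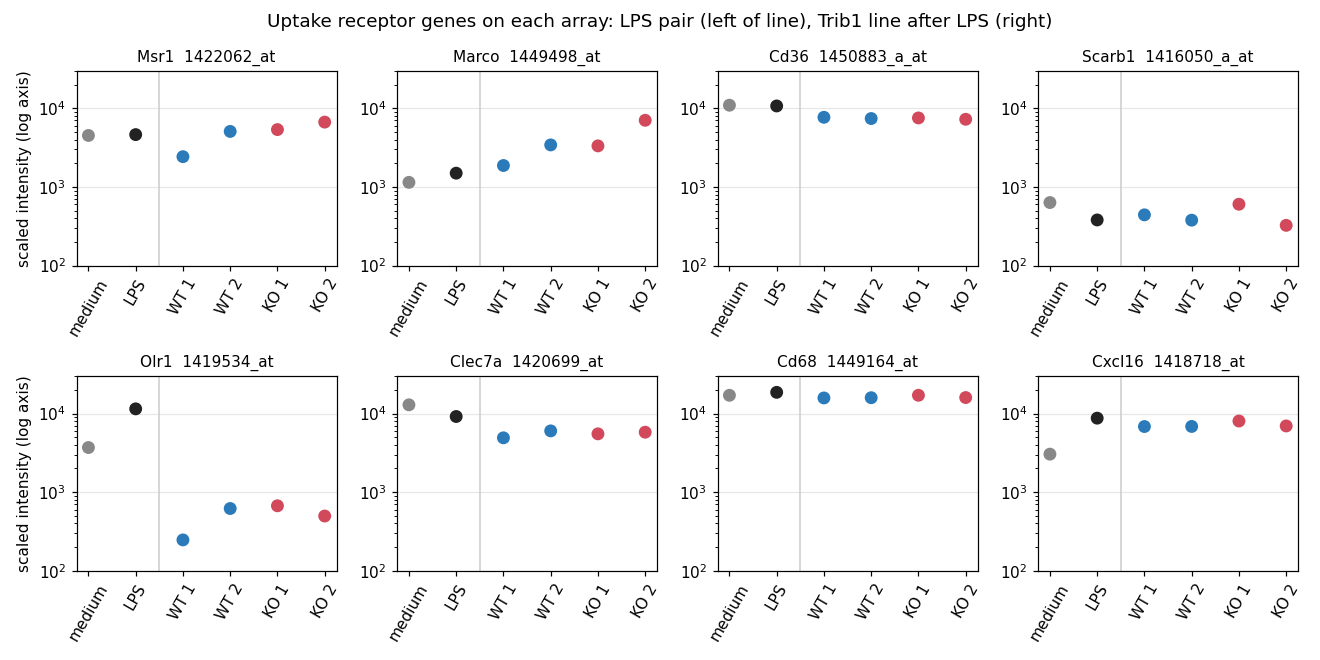
Scaled intensity (log axis) of the leading probe set of each of the 8 genes on each array, 1 point per array: the medium and the LPS array of the pair left of the line, wild type (WT, blue) and knockout-labelled (KO, red) arrays of the Trib1 line right of it. Olr1 lies between 247 and 671 on the 4 Trib1-line arrays and at 3694 and 11469 on the LPS pair, while Cd68 lies between 15787 and 18601 on all 6.

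Against medium, LPS-treated wild-type macrophages carried more Cxcl16 RNA on every array. CXCL16 is a membrane-bound chemokine that also takes up oxidised lipoproteins, and its shed form attracts cells bearing the receptor CXCR6. The scaled intensity of the leading probe set, 1418718_at, went from 3045 with medium to 8736 with LPS in the pair, and was 6834 and 6852 on wild type 1 and 2 of the Trib1 line. On the knockout-labelled arrays it was 8032 and 6950. All 5 LPS arrays thus stood above the medium array. The ratio of LPS to medium was 2.87 in the LPS pair and 2.24 and 2.25 with each wild-type Trib1-line array in place of its LPS array. The second Cxcl16 probe set, 1449195_s_at, gave ratios of 2.93, 2.13 and 2.19.

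With 1 medium array, the LPS pair has no error and no test. By the rule used for the series, at least 4-fold between the arrays of the LPS pair, 0 of the 17 member probe sets were higher and 0 lower, beside 0.986% of 29115 probe sets higher and 0.598% lower. At 2-fold, 3 of the 17 were higher (both Cxcl16 probe sets and Olr1) and 0 lower, beside 5.02% higher and 6.29% lower overall. The 2 Cxcl16 probe sets were also the only members at least 2-fold above medium on all 3 wild-type LPS arrays, beside 1.94% of all probe sets, and they measure 1 gene. None of the 17 was at least 2-fold below medium on all 3, beside 2.17%. The ratio for the leading Cxcl16 probe set was reached or passed by 1.93% of probe sets above the floor on the LPS pair. The median log2 ratio over the 17 was 0.04 and over all 29115 probe sets -0.09.

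Set against all 3 wild-type LPS arrays, the medium array was lower for Cxcl16 by a log2 difference of 1.29 (SE 0.30, 2.44-fold; limma, unadjusted p = 0.00359, Benjamini-Hochberg adjusted p = 0.231), which did not pass. In that fit the lone medium array is assumed to vary like the LPS arrays, and 2 of those arrays belong to the other scaling set. It called 0 of the 17 member probe sets, beside 0.158% of 28430 higher with LPS and 0.0106% lower. At an unadjusted p under 0.05, 2 of the 17 (both Cxcl16) were higher, beside 3.65%, and 1 (Clec7a) lower, beside 4.51%.

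Olr1 was higher with LPS within the LPS pair, yet on the LPS-treated Trib1 line it lay far below the medium array. LOX-1 binds oxidised low-density lipoprotein and is made by endothelial cells, smooth muscle cells and macrophages. Its scaled intensity (1419534_at) went from 3694 with medium to 11469 with LPS in the pair, 3.10-fold higher in that pair. On the Trib1-line arrays, all given LPS, it was 247 and 619.7 in wild type and 671 and 497 in the knockout-labelled samples. Those 4 values lay below the untreated level of the LPS pair, by 15.0-fold and 5.96-fold on wild type 1 and 2. The LPS array of the LPS pair stood 29.3-fold above the mean of both wild-type Trib1-line arrays on the log2 scale, rank 3 from the highest such excess among 26780 probe sets. All 3 arrays are labelled wild type with LPS. They differ in the authors' scaling set and in the Trib1 label, and the labels do not say what line the LPS pair is of. These parts cannot be told apart here.

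Endothelial cells also express Olr1. The summed scaled intensity of 6 endothelial markers was 213 in medium, 286 on the LPS array and between 293 and 405 on the Trib1-line arrays. Of those 6, only Kdr was above the floor on all arrays. The sum of 7 B cell markers was 1570 in medium, 2648 on the LPS array and between 375 and 885 on the Trib1-line arrays. It is given because it shared the step of Olr1 between the LPS pair and the line. Fcer2a alone of these markers did not share it, at 35.1 and 37.6 on the LPS pair and between 18.9 and 92.7 on the line. The sum of 6 mast cell markers, 1160 in medium and 1404 on the LPS array, was also lower on the line. There it was 697 and 1023 for wild type, but 205 and 268 for knockout-labelled samples. Its markers were mixed in this. Cpa3, Cma1 and Mcpt4 were lower on every line array than in medium. Fcer1a read 60.7 in medium and 59.9 with LPS, beside 61.2 and 74.4 for wild type of the line. Tpsb2 read 110 and 169, beside 134 and 148. Kit, under the floor on wild type 1, went both ways. The part of any of these cell types in the Olr1 values was not tested.

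The probe sets nearest to Olr1 over the 6 arrays were found by the root mean square difference of centred log2 scaled intensity, among 17633 single-gene probe sets above the floor on every array. They were 2 probe sets of Dab2, an adaptor protein of clathrin-mediated uptake (0.64 and 0.71), and 1 of Ddhd1, a phospholipase gene (0.74). Dab2 (1420498_a_at) measured 5693 in medium and 4765 on the LPS array, and between 333 and 443.8 on the Trib1-line arrays. Dab2 thus shared with Olr1 the step between the LPS pair and the Trib1 line and not the higher value with LPS within the pair. Likeness over 6 arrays that fall into 2 scaling sets is a description and carries no p.

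**Figure D2:**
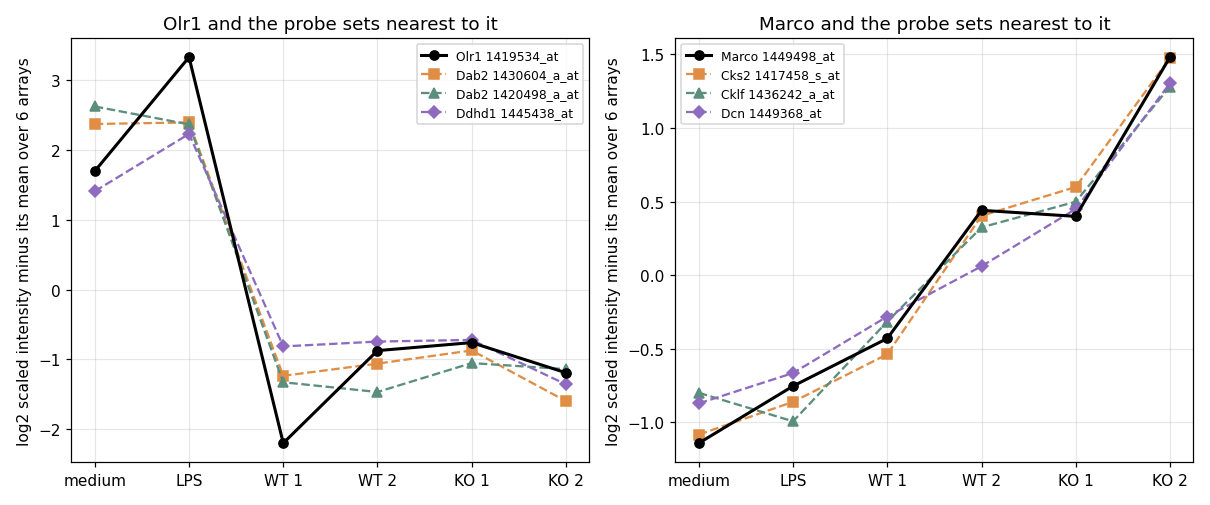
Log2 scaled intensity minus its mean over the 6 arrays for Olr1 (left) and Marco (right), in black, with the 3 probe sets nearest to each, 1 point per array; lines only join the points. Olr1, Dab2 and Ddhd1 are high on the LPS pair and low on the 4 Trib1-line arrays, and Marco, Cks2, Cklf and Dcn are lowest on the LPS pair and highest on knockout 2.

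Clec7a, the chromosomal neighbour of Olr1, lay below the medium array on every LPS array, though the Trib1 line has no medium array of its own. The scaled intensity of its probe set (1420699_at) went from 12902 with medium to 9168 with LPS in the pair, a ratio of 0.71. It was 4911 and 6016 on wild type 1 and 2, set against 5516 and 5790 on knockout 1 and 2. The whole span of the gene over the 6 arrays was 2.63-fold, against 46.4-fold for Olr1. The LPS array of the pair stood 1.69-fold above the mean of both wild-type Trib1-line arrays on the log2 scale. Within the pair, medium stood 1.41-fold above LPS. On the Trib1 line, LPS and the step between the sets cannot be told apart, and the next fit takes in both. Fitted against all 3 LPS arrays of wild type, Clec7a was 1.99-fold lower after LPS (SE 0.40 on the log2 scale; limma, Benjamini-Hochberg adjusted p = 0.585). The nearest probe sets to Clec7a were those of Ndfip1 (0.06), Slc6a8 (0.07) and Tada1 (0.09).

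For the class B receptor genes the LPS arrays also lay under medium, again with no medium array for the Trib1 line. Cd36, a fatty acid and oxidised lipoprotein receptor gene, measured 10943 in medium and 10706 on the LPS array with 1450883_a_at, and 7680 and 7409 in the wild-type and 7539 and 7248 in the knockout-labelled samples of the line. Its other probe sets were lower still in the pair, with ratios of 0.70 for 1423166_at and 0.74 for 1450884_at against 0.98 for the leading one. With the leading one, the LPS array of the pair stood 1.42-fold above the mean of both wild-type Trib1-line arrays on the log2 scale. Medium stood 1.02-fold above LPS within the pair, so on this probe set the lower values of the line lay mostly in the step between the sets. The other Cd36 probe sets went the other way. On 1423166_at medium stood 1.43-fold above LPS in the pair, and that LPS array 1.11-fold above the wild-type line mean. On 1450884_at these were 1.36-fold and 1.16-fold. Scarb1, the receptor gene for high-density lipoprotein, measured 632.9 in medium and 380.1 on the LPS array with 1416050_a_at. On the Trib1 line it was 441.5 and 377.7 in wild type and 602.3 and 324.6 in the knockout-labelled samples. The ratios in the pair were 0.60, 0.58 and 0.65 over its 3 probe sets.

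On all 3 Cd36, all 3 Scarb1 and the single Clec7a probe set, each of the 5 LPS arrays lay below medium, which is 7 of the 17 beside 25.1% of all probe sets. On both Marco and both Cxcl16 probe sets each of the 5 lay above it, which is 4 of the 17 beside 15.7%. The 5 comparisons share the medium array, and those with the Trib1 line also cross the scaling sets, so they do not repeat each other. The 11 probe sets of 5 genes with like-signed values are a description.

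Marco and Msr1, the class A receptors, stood apart from each other in the LPS-treated wild-type samples. Marco, a receptor for bacteria and inhaled particles, measured 1143 in medium and 1496 after LPS with 1449498_at, a ratio of 1.31. Msr1, a receptor for acetylated lipoprotein and bacterial lipids, measured 4513 and 4627 with 1422062_at, a ratio of 1.03. On wild type 1 and 2 Marco stood 1.64-fold and 2.99-fold above medium, whereas Msr1 stood at 0.54 and 1.13 times medium. The wild-type Trib1-line arrays thus lay on either side of medium for Msr1. Its direction after LPS flipped under quantile normalization, where the log2 ratio of the pair was -0.15. For Marco the mean of both wild-type Trib1-line arrays on the log2 scale stood 1.69-fold above the LPS array of the pair. On its other probe set, 1458297_s_at, that step was 2.07-fold, beside a ratio of 1.35 in the pair. On the line, LPS and the step between the sets cannot be told apart.

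Cd68, a heavily glycosylated protein of late endosomes and lysosomes used as a macrophage marker, varied least among the members. Its scaled intensity (1449164_at) was 17055 in medium and 18601 after LPS, and in the line 15787 and 15895 for wild type and 17065 and 15970 for knockout-labelled samples. The highest array was 1.18 times the lowest. The log2 ratio of the LPS pair was 0.12 and turned to -0.23 under quantile normalization, so no direction is given for it.

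**Figure D3:**
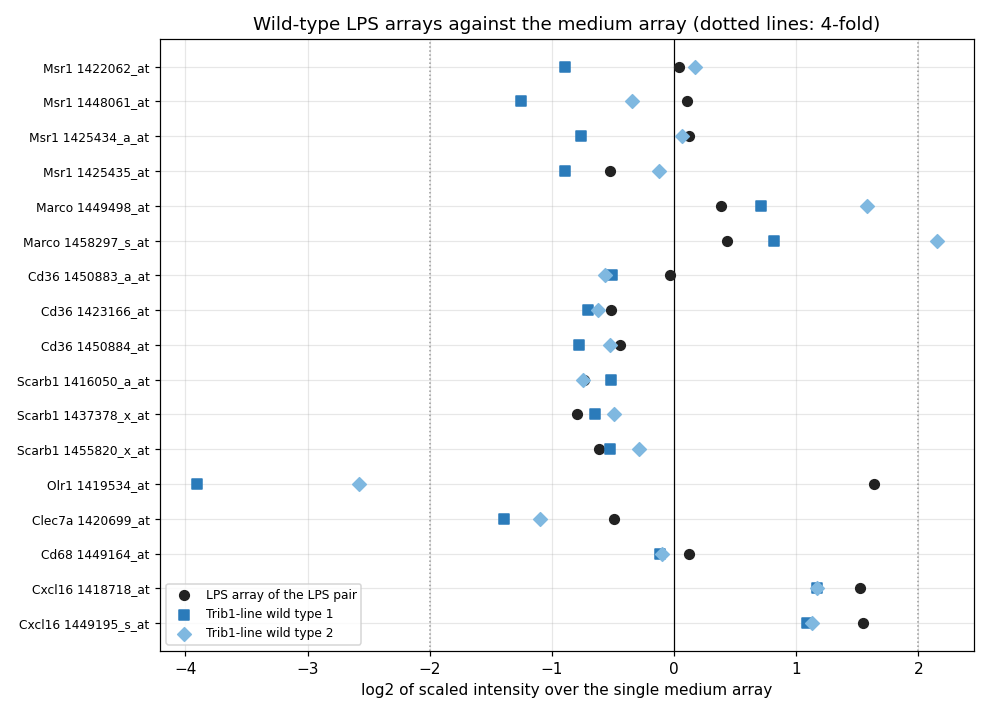
Log2 ratio to the single medium array for each of the 17 probe sets: the LPS array of the LPS pair (black circles) and both wild-type Trib1-line arrays (blue). Both Cxcl16 probe sets lie between 1.09 and 1.55 on all 3 arrays, and Olr1 lies at 1.63 in the LPS pair but at -3.90 and -2.58 on the Trib1 line. Dotted lines mark 4-fold.

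Between genotypes after LPS, Msr1 and Marco showed the highest estimates among the 8 genes, and no member passed the test, which did not use the arrays' numbers. Msr1 (1422062_at) had scaled intensities of 2425 and 5079 on wild type 1 and 2, set against 5359 and 6671 on knockout 1 and 2. The groups did not overlap, but wild type 2 lay far closer to the knockout-labelled arrays than to wild type 1. The log2 difference was 0.77 (SE 0.36, 95% interval -0.13 to 1.67, 1.70-fold; limma, Benjamini-Hochberg adjusted p = 0.999). Without wild type 1 it was 0.24, and without wild type 2 it was 1.30.

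The other Msr1 probe sets had the same order of groups. For 1448061_at the values were 1261 and 2360 in wild type and 3247 and 3840 in the knockout-labelled samples, a log2 difference of 1.03 (SE 0.32, 95% interval 0.24 to 1.82; limma, unadjusted p = 0.019, adjusted p = 0.950). For 1425435_at it was 0.88 (SE 0.35; limma, unadjusted p = 0.0472, adjusted p = 0.990), and for 1425434_a_at 0.54 (SE 0.29). On all 4, both knockout-labelled arrays lay above both wild-type arrays and also above the LPS array of the first pair, which read 4627 for the leading probe set. These 4 were the only member probe sets above all 3 wild-type LPS arrays, beside 10.9% of all probe sets tested, and 0 of the 17 lay below all 3, beside 8.35%. They measure 1 gene and so are not independent. Wild type 1 was the lowest of the 6 arrays on each of the 4, and the medium array read 4513 on the leading one.

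Marco gave log2 differences of 0.93 on both probe sets (1449498_at, SE 0.44, 95% interval -0.16 to 2.03, 1.91-fold; limma, Benjamini-Hochberg adjusted p = 0.999). Its scaled intensity was 1872 and 3421 on wild type 1 and 2, set against 3325 and 7037 on knockout 1 and 2. The groups overlapped, since knockout 1 lay under wild type 2. Arrays of 1 genotype were 1.83-fold apart in wild type and 2.12-fold apart in the knockout-labelled samples. Of all probe sets tested, 14.4% and 7.80% were at least as far apart. In both genotypes array 2 read higher than array 1, so this spread went with the number, whose meaning the labels do not give. Without knockout 2 the difference was 0.39, and without knockout 1 it was 1.48. With the numbers taken as a block both Marco probe sets passed the adjusted threshold, a result given with its limits at the end.

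Within the Trib1 line, Marco and a sum of stromal markers were both lowest on wild type 1 and highest on knockout 2. The summed scaled intensity of 6 mesothelial and stromal markers was 735 and 1007 on wild type 1 and 2, set against 1218 and 2971 on knockout 1 and 2. It was 558 in medium and 481 on the LPS array. Of the 6, 3 were above the floor on all arrays (Col1a1, Col3a1 and Dcn), and the mesothelial marker genes Msln and Upk3b stayed at or below 58.0 on every array. Like Marco, Col3a1 and Dcn were higher on array 2 of each genotype. Col1a1 read 147 and 140 on wild type 1 and 2, and Wt1, partly under the floor, was lower on array 2 of each genotype. Dcn, which encodes the matrix proteoglycan decorin, was also among the 3 probe sets nearest to Marco (0.22), after those of the cell cycle gene Cks2 (0.11) and of Cklf (0.20). The part of stromal RNA in the Marco values was not tested.

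None of the neutrophil or mast cell markers tested passed the adjusted threshold between genotypes (limma; 0 of 7 and 0 of 5), but their sums lay apart. The sum of 8 neutrophil markers, of which 5 were above the floor on all arrays, was 654 and 618 in the wild-type samples, set against 3428 and 1275 in the knockout-labelled ones, most of it from Mmp8 (212 and 122 against 2587 and 714). The markers did not go one way: at an unadjusted p under 0.05, 2 were higher in the knockout-labelled samples (Mmp8 and Camp) and 1 lower, the lactoferrin gene Ltf (87.0 and 87.2 against 40.2 and 12.7). The sum of 6 mast cell markers, of which 2 were above the floor on all arrays, was 697 and 1023 against 205 and 268, with 4 of 5 tested lower at an unadjusted p under 0.05. Among all probe sets tested, 2.28% were higher and 2.71% lower at that p. The sum of 10 macrophage markers was 94819 and 99665 against 106671 and 104891. The part of any of these in the Msr1 values was not tested.

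**Figure D4:**
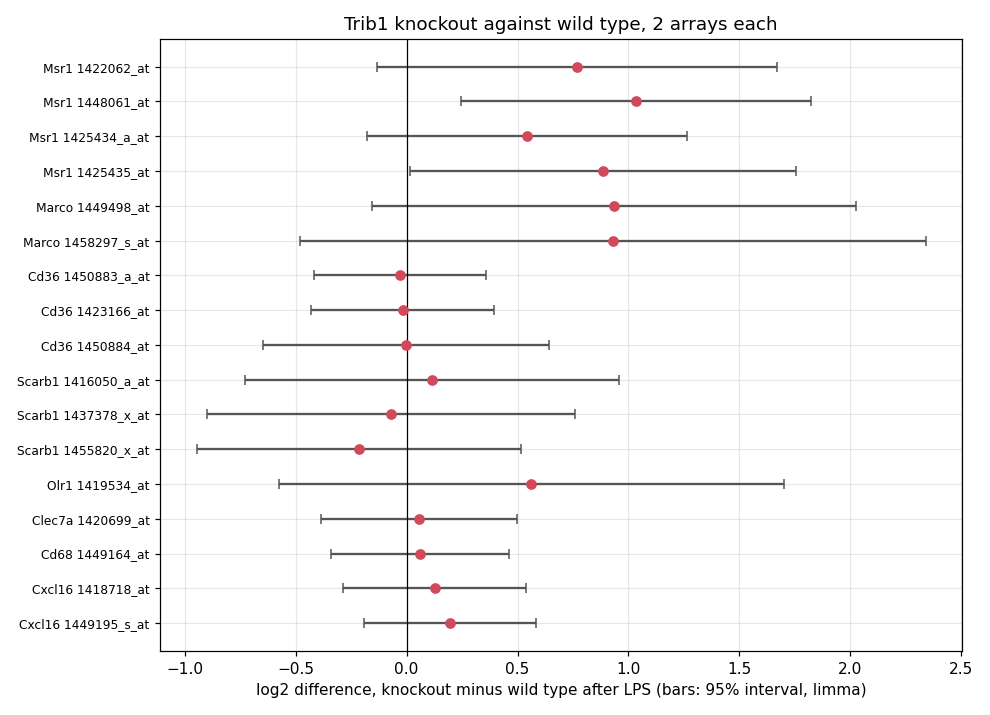
Log2 difference between knockout-labelled and wild-type arrays of the Trib1 line after LPS (n = 2 each) for the 17 probe sets, with 95% intervals from limma. The 4 Msr1 probe sets lie between 0.54 and 1.03 and both Marco probe sets at 0.93, while the 3 Cd36 probe sets lie just below 0, the lowest at -0.03; no difference passed the adjusted threshold.

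The remaining members showed smaller estimates. Cd36 had a log2 difference of -0.03 (SE 0.16), and its 95% interval from -0.42 to 0.36 bounds the ratio between 0.75-fold and 1.28-fold. Clec7a had a difference of 0.06 (95% interval -0.38 to 0.50), Cd68 of 0.06 (-0.34 to 0.46) and Cxcl16 of 0.13 (-0.29 to 0.54). On both Cxcl16 probe sets and on Cd68 the knockout-labelled arrays lay above the wild-type arrays of the line, but not above the LPS array of the LPS pair. Scarb1 had a difference of 0.11 (95% interval -0.73 to 0.96), with knockout 1 and 2 1.86-fold apart. Its probe sets disagreed in sign, at 0.11, -0.07 and -0.22. Olr1 had a difference of 0.56 (95% interval -0.58 to 1.70), which was -0.10 without wild type 1. An interval that spans 0 does not show that the genotypes have equal levels.

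Over the 17 probe sets limma called 0 at a Benjamini-Hochberg adjusted p under 0.05, beside 0% of 29078 tested in either direction. At an unadjusted p under 0.05, 2 of the 17 were higher in the knockout-labelled samples (both Msr1) and 0 lower, beside 2.28% higher and 2.71% lower overall. Both knockout-labelled arrays lay above both wild-type arrays on 7 of the 17, beside 15.4% of all probe sets, and below on 1 (1455820_x_at of Scarb1), beside 16.3%. Those 7 belong to Msr1, Cxcl16 and Cd68. The median log2 difference over the 17 was 0.13, and over all probe sets tested -0.01. With 2 arrays a genotype, the smallest two-sided p that exact permutation allows is 0.333, so none is given.

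Genes that work beside these receptors were followed by lists. For every list below, the shares of all probe sets past the 4-fold LPS rule were 0.986% higher and 0.598% lower. The median log2 LPS ratio over all probe sets was -0.09. Between genotypes, the shares at an unadjusted p under 0.05 (limma) were 2.28% higher and 2.71% lower, and the median log2 difference was -0.01. Of 15 other uptake receptor genes above the floor on the LPS pair, 1 passed the 4-fold LPS rule: Clec4e, the receptor gene for mycobacterial cord factor, went from 4549 to 19424 (4.27-fold) and stayed between 16068 and 18885 on the Trib1 line. The list's median log2 LPS ratio was -0.20. Mrc1, the mannose receptor gene, shared the step between sets with Olr1 and was picked with its values known. It measured 5430 and 3503 on the LPS pair and between 280.0 and 667 on the Trib1 line. The list was mixed in this, and Scarf1 and Timd4, also picked with their values known, went the other way. Scarf1 measured 53.4 and 86.0 on the LPS pair and between 332 and 548 on the line. Timd4 measured 1053 and 1394 on the LPS pair and between 2281 and 6369 on the line. Between genotypes 0 of 15 tested passed the adjusted threshold, and Stab1, a scavenger receptor gene, was the 1 gene of the list that stood 2-fold or more higher on each knockout-labelled array than on each wild-type array (549.8 and 551.5 against 143.0 and 92.5; limma adjusted p = 0.766), beside 0.389% of all probe sets. None stood 2-fold or more lower, beside 0.33%. At an unadjusted p under 0.05 (limma), 4 of the 15 were higher (Stab1, Clec4d, Clec4n and Cd14) and 0 lower. Among all probe sets tested, 2.28% were higher and 2.71% lower at that p. Clec4d measured 14418 on the LPS array of the pair, above its 11390 on knockout 2. Stab1, Clec4n and Cd14 were higher on both knockout-labelled arrays than on that LPS array. The list's median log2 difference was 0.11. Cd14 is also on the macrophage marker list.

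Among 9 genes of Dectin-1 signalling, 1 was past the LPS rule: the kinase gene Src went from 108.5 to 795.4 (7.33-fold) and lay between 556.9 and 1210 on the Trib1 line. The list's median log2 LPS ratio was 0.45, but its genes went both ways: 6 lay above medium on the LPS array of the pair and 3 below it. The 3 below, named after their values were seen, were Inpp5d, the gene of a lipid phosphatase (0.27 times medium), Vav1, a guanine nucleotide exchange factor gene (0.46 times), and the phospholipase gene Plcg2 (0.52 times). Syk, which encodes the kinase that Dectin-1 engages, was 2889 in medium and 6489 after LPS, and it was named because of that role. Between genotypes 0 of 9 passed, and 0 had an unadjusted p under 0.05 (limma); the median was -0.06.

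Of 8 regulators of scavenger receptor genes, 1 was past the LPS rule in the lower direction: Pparg, the nuclear receptor gene that drives Cd36, measured 144.0 in medium and was under the floor on all 5 LPS arrays, at least 4.82-fold lower on the LPS array of the pair. The list's median log2 LPS ratio was -0.12. Among 10 lipid handling genes above the floor, 0 were past the LPS rule (median -0.14). Between genotypes 0 of 7 tested regulators and 0 of 10 tested lipid handling genes passed the adjusted threshold. At an unadjusted p under 0.05, 0 regulators and 3 lipid handling genes (Fabp4, Lpl and Lipa, all lower) were counted, beside 2.71% of all probe sets lower. The lipid list's median was -0.24. Of 5 partners of Cxcl16 and Scarb1, 4 were above the floor on the LPS pair and 0 were past the rule. The sheddase gene Adam10, which cleaves CXCL16 from the membrane, was 4078 in medium and 1718 after LPS, and between 1066 and 1678 on the Trib1 line. Between genotypes 0 of the 3 tested partners passed, and 0 had an unadjusted p under 0.05.

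The probe sets nearest to the other members over the 6 arrays were those of Cdan1 (0.04), Macf1 (0.09) and the cholesterol exporter gene Abca1 (0.11) for Msr1, and of Pik3cg (0.09) and, with both of its probe sets here, the inhibitor gene Nfkbib (0.11 and 0.12) for Cxcl16. The Abca1 probe set in question (1421839_at) measured 134.2 and 309.0 on wild type 1 and 2, set against 309.6 and 319.3 on knockout 1 and 2, low on wild type 1 as Msr1 was. The Nfkbib probe set 1421266_s_at measured 1286 in medium and 4592 after LPS, and between 3288 and 3828 on the Trib1 line.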

How the data were processed

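RNA of 6 macrophage samples was measured on one-colour Affymetrix arrays, as total RNA extracted with TRIzol per the labels. The deposited values are linear probe set intensity values that the authors made with MAS5, per the submitters' processing notes; its version and scaling target are not given in the sources used here. The 64 control probe sets were left out of 45101. All arrays were brought to one 2% trimmed mean (234). The 40th percentile over the pooled arrays (29.9) served as a floor before taking log2. Samples were grouped by their titles. Knockout-labelled and wild-type arrays of the Trib1 line were set against each other in R 4.3.3 with limma 3.58.1 (eBayes with trend, two-sided, residual degrees of freedom 2, prior 3.68, Benjamini-Hochberg over the 29078 probe sets that passed the floor on 2 or more of the 4 arrays, threshold 0.05). LPS against medium has 1 array each, and a 4-fold rule was used. For arrays, their number limits the precision.

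Gene names come from the platform annotation, and all 8 gene identifiers matched RefSeq (GRCm38.p6). Lists used the probe set with the highest mean. Named were all members, list genes past the LPS rule or separated 2-fold between genotypes (up to 4 each), and the 3 probe sets nearest to each member that spanned at least 2-fold; others are said to be chosen later. Alternatives were other scalings, the 25th or 60th percentile as the floor, log2(value + 16), filters, fold rules of 2 and 8, a block, left-out arrays, an added wild type and a prior without trend. Scripts were tested on simulated data. The members and lists were chosen with earlier results of these data known. Figures used Python 3.11.15 and matplotlib 3.10.9.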

Additional observations from a re-analysis of the deposited data

How the results depend on the processing

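For LPS, 0 member probe sets passed the 4-fold rule with the values as deposited, quantile normalization, either other floor, log2(value + 16), the 8-fold rule, 1 probe set per gene and limma. The exceptions were 3 at 2-fold, and 1 (Olr1, lower) and 2 (Olr1 lower, a Marco probe set higher) with wild type 1 or 2 of the Trib1 line in place of the LPS array. Over all probe sets the 287 higher and 174 lower became 790 and 815 as deposited, 501 and 465 with the lower floor, 1461 and 1832 at 2-fold, 82 and 17 at 8-fold, 166 and 88 with 1 probe set per gene, 45 and 3 with limma, and 447 and 489 with wild type 2. Lower calls alone moved to 85 with the higher floor and 370 with wild type 1. Of 64 alternative log2 LPS ratios of the leading probe sets, 10 changed sign. For Olr1 they were -3.90 and -2.58 with wild type 1 and 2 and -1.61 with limma. For Msr1 they were -0.15 with quantile normalization, -0.90 with wild type 1 and -0.23 with limma. For Cd68 they were -0.23 with quantile normalization, -0.11 and -0.10 with wild type 1 and 2, and -0.029 with limma. Between genotypes, leaving out 1 array gave 5 to 36 higher and 0 to 32 lower calls over all probe sets and 0 to 0 among members; a lone array is then assumed to vary like the other group. Signs changed for Cd36 as deposited (0.038) and for Olr1, Clec7a and Cd68 with the LPS array as an added wild type (-1.06, -0.20 and -0.018). With 1 array left out they ran from -0.33 to 0.56 for Scarb1 (lowest without knockout 1), from -0.10 to 1.23 for Olr1 and from -0.090 to 0.20 for Clec7a (both lowest without wild type 1). As deposited, 8 member probe sets lay higher and 0 lower on both knockout-labelled arrays, in place of 7 and 1. Causes of these shifts were not tested, apart from rules and filters that change what is counted.

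A replicate block made of the labels' numbers gave 85 higher and 31 lower calls (0.292% and 0.107% of those tested), 2 of them members: the Marco probe sets, with an unchanged log2 difference of 0.93 (adjusted p = 0.0372 and 0.0351; the lead probe set's other alternatives ran from 0.136 up). The labels do not say that a number marks a shared mouse, litter or day. Deviations of the arrays numbered 1 from their group means correlated with r = 0.35 over 29078 probe sets, which are not replicates; with 2 numbers this does not settle whether they pair the arrays, and the fit without the block was kept. The limits are 2 arrays per genotype, 1 medium array and a Trib1 line without one.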
